A study of Homo sapiens with 6 samples.

Results

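Imprinted genes were examined in 6 libraries made by ATAC-seq, an assay of open chromatin, from the human pluripotent stem cell line H1. A list of 33 well-known imprinted genes was taken, and all 33 were found in a RefSeq gene table of GRCh38.p14 that holds 59679 genes. Every summit inside one of these genes or within 5 kb of it was kept, which gave 567 of the 356720 summits in the libraries. A summit is the position of strongest signal in a peak of open chromatin, and peaks had been called in each library on its own. The members were grouped into 18 imprinted domains. No measured value entered the rule that chose them, but earlier results of these data were known when they were chosen.

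The cells were the embryonic stem cell line H1, kept in mTeSR1 medium on Matrigel. Short hairpin RNAs were brought in with a virus, and cells that had taken it up were selected with puromycin. The 4 treated libraries carried a hairpin against HNRNPU, which encodes a nuclear RNA-binding protein, and came as 2 repeats of shHNRNPU #1 and 2 repeats of shHNRNPU #2. The 2 control libraries carried a hairpin against luciferase, shLUC, so that virus, hairpin and selection were shared by all groups. The labels do not say whether repeats were separate cultures, so p-values measure the spread between these libraries, which may be technical. Summits do not measure RNA, and the knockdown of HNRNPU was therefore not checked here.

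Libraries held 52168 to 63519 summits, and their median score lay between 6.91 and 8.43. The score is the −log10 of the q-value of a peak within its own library. It was converted to a percentile, the place of a summit among all summits of the same list, since scores were not normalized between libraries. No 2 libraries shared identical summit records, and read depth is unknown. All 6 pluripotency marker genes had a summit in every library. By mean number of summits, 3 of the 6 were higher with shHNRNPU and 3 were lower. The windows of SOX2 and NANOG held fewer summits in each shHNRNPU library than in either control, with 1, 2, 1 and 2 against 3 and 3 for SOX2 and 2, 2, 1 and 1 against 3 and 3 for NANOG, a pattern found at 3.09% of all genes with a summit. All 8 markers of endoderm, mesoderm, neuroectoderm and trophoblast also had summits in every library, and the groups overlapped at each of the 8. Their mean number of summits was higher with shHNRNPU at 6 of the 8 and lower at 0, and their windows together held 22 to 28 summits in treated libraries and 21 in each control. The pluripotency markers together held 13 to 15 and 15 to 17. A summit alone does not show that a gene is expressed, and the part of these markers in the results for imprinted genes was not tested.

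Imprinted genes are expressed mainly from the copy inherited from one parent. DNA methylation laid down in the egg or the sperm marks an imprinting control region, and that mark is kept through early development with the help of zinc finger proteins such as ZFP57 and the cofactor TRIM28. Many imprinted genes govern fetal growth, placental function and behaviour, and their imprints are known to be lost in some human pluripotent cultures. The summits hold signal from both parental copies together, so the copies cannot be told apart here. Fewer cells with an open site and less opening per cell cannot be told apart either.

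RefSeq start sites were available for 19 members, as 48 promoter windows that run from 250 bases before to 50 bases after a start and that partly overlap. The windows of ZDBF2, BLCAP and L3MBTL1 are shown because differences between libraries described later lie at or next to them, and those of PLAGL1 and SNRPN because they hold well-known imprinted starts of members described later. Sequence is GRCh38.p14, 5′ to 3′ along the strand of the gene. Capitals mark TGCCGC or its reverse complement GCGGCA, the letters that ZFP57 recognises when methylated.
ZDBF2, chr2:206274413-206274712, plus strand, the outermost start: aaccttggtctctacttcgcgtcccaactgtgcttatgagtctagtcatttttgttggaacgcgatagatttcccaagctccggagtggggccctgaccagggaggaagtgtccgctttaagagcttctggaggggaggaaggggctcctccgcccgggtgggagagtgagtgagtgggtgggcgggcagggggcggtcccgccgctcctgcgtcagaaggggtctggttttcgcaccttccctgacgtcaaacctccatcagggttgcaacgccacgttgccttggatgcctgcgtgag
ZDBF2, chr2:206274760-206275059, plus strand, the inner start: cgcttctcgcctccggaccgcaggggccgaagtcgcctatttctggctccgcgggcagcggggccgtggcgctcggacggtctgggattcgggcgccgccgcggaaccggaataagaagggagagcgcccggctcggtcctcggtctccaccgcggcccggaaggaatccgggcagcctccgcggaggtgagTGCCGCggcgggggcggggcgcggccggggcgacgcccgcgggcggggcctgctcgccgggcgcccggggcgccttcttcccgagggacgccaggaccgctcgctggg
PLAGL1, chr6:144008210-144008509, minus strand: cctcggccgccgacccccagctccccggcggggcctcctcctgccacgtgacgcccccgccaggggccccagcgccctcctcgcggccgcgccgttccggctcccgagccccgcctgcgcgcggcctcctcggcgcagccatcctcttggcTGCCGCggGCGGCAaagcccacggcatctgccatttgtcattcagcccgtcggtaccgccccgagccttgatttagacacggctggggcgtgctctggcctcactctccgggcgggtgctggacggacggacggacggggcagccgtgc
SNRPN, chr15:24954737-24955036, plus strand: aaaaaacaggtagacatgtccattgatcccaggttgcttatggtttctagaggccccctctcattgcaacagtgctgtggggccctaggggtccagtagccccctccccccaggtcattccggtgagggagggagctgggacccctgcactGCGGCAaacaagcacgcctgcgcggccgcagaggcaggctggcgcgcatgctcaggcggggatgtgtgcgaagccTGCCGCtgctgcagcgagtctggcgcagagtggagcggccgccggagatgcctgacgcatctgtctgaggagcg
BLCAP, chr20:37527827-37528126, minus strand: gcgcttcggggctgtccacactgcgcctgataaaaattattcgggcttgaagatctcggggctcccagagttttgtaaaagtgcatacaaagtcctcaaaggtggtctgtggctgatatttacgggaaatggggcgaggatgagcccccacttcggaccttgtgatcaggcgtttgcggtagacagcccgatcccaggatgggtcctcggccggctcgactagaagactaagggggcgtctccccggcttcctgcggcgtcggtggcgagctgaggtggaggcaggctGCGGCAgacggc
L3MBTL1, chr20:43507447-43507746, plus strand: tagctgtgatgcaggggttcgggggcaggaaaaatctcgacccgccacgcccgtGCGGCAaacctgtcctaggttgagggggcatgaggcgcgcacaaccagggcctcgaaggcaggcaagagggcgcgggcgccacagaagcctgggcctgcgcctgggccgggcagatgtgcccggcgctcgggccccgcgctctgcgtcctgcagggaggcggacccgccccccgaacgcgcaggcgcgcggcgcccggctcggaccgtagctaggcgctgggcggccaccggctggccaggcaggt

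The 2 windows of ZDBF2 differ in these letters, with 0 matches at the outermost start and 1 at the inner start. The PLAGL1 and SNRPN windows held 2 matches each, and those of BLCAP and L3MBTL1 held 1 each. Searched on both strands, TGCCGC occurred in 21 of the 48 member windows (43.8%) and in 16.7% of the 35116 windows of all genes. The YY1 letters GCCATNTT occurred in 6 member windows (12.5%) and in 6.58% of all windows. A core motif of CTCF was found in 0 member windows and in 0.0655% of all windows. The median number of CpG dinucleotides per window was 18 for members and 14 for all genes. Member windows with a summit within 250 bp in all 6 libraries had a median of 35 CpG over 17 windows, those with one in 1 to 5 libraries had 21.5 over 12, and those with none had 9 over 19. Windows of the same gene overlap, so these counts are descriptions of the reference and not of independent sites.

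The first comparison asked whether more open chromatin was called in imprinted genes after HNRNPU was targeted. Values are given throughout in the order shHNRNPU #1 repeats 1 and 2, shHNRNPU #2 repeats 1 and 2, shLUC repeats 1 and 2. The imprinted windows held 102, 112, 103, 83, 82 and 85 summits. The treated mean was 100 ± 12.2 (SD, n = 4), the control mean was 83.5 ± 2.12 (SD, n = 2), and the lowest treated library lay between the controls (exact permutation test over 15 assignments, two-sided, p = 0.267). As a share of all summits in the library the values were 0.173%, 0.176%, 0.176%, 0.159%, 0.132% and 0.138%. On this scale every shHNRNPU library lay above both shLUC libraries, with a mean share of 0.171% ± 0.00819 (SD, n = 4) against 0.135% ± 0.00470 (SD, n = 2), a ratio of 1.27. The exact two-sided permutation p was 0.133, the smallest that 4 libraries against 2 can give, so no comparison of this kind could reach 0.05. Both hairpins were on the same side of the shared controls, with a mean share of 0.175% for shHNRNPU #1 and 0.168% for shHNRNPU #2.

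Windows of all genes together held 79.8% ± 0.672 (SD, n = 4) of summits with shHNRNPU and 78.0% ± 0.423 (SD, n = 2) with shLUC, a ratio of 1.02. Here too every treated library lay above both controls (exact permutation p = 0.133). The higher share in imprinted genes lay mostly away from the outermost ends of the members. Starts farther inside a member were not counted as ends. Within 2000 bp of an end of a member lay 34, 31, 30, 29, 30 and 30 summits, a difference of means of 1 summit (exact permutation p = 0.933), and on the share scale the difference there was 0.00477 percentage points with overlapping groups (exact permutation p = 0.267). Farther inside or around the members lay 68, 81, 73, 54, 52 and 55 summits. Their share of the library was 0.118% ± 0.0109 (SD, n = 4) against 0.0866% ± 0.00424 (SD, n = 2), with all treated libraries above both controls and a ratio of 1.36 (exact permutation p = 0.133). Over all genes, 38.1% ± 1.73 (SD, n = 4) of summits in treated and 35.5% ± 0.495 (SD, n = 2) in control libraries lay within 2000 bp of a gene end, with all treated libraries above both controls and a ratio of 1.07, where the ratio for member ends was 1.10. The share inside the windows of all genes but farther than 2000 bp from any gene end was 41.8% ± 1.13 (SD, n = 4) in treated and 42.5% ± 0.0725 (SD, n = 2) in control libraries. This measure is not like that for the members, where only the ends of members were set aside.

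The stronger summits separated the groups and the weaker ones did not, although the weaker ones had the larger difference of means. Summits with a score of at least 5 numbered 60, 65, 58, 61, 55 and 53 in the imprinted windows, so that all treated libraries were above both controls. Summits with a lower score numbered 42, 47, 45, 22, 27 and 32, and here the groups overlapped. The overlap came from shHNRNPU #2 repeat 2, and the difference of means was 9.5 summits, against 7 for the stronger summits. Over whole libraries, a mean of 31.5% of treated and 33.8% of control summits scored below 5, with overlapping groups. The longest members are KCNQ1, which encodes a voltage-gated potassium channel, and TRAPPC9, which encodes a subunit of a membrane trafficking complex. Without them the share was 0.127% ± 0.00530 (SD, n = 4) against 0.105% ± 0.00785 (SD, n = 2), and the difference of means fell from 0.0359 to 0.0213 percentage points.

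**Figure D1:**
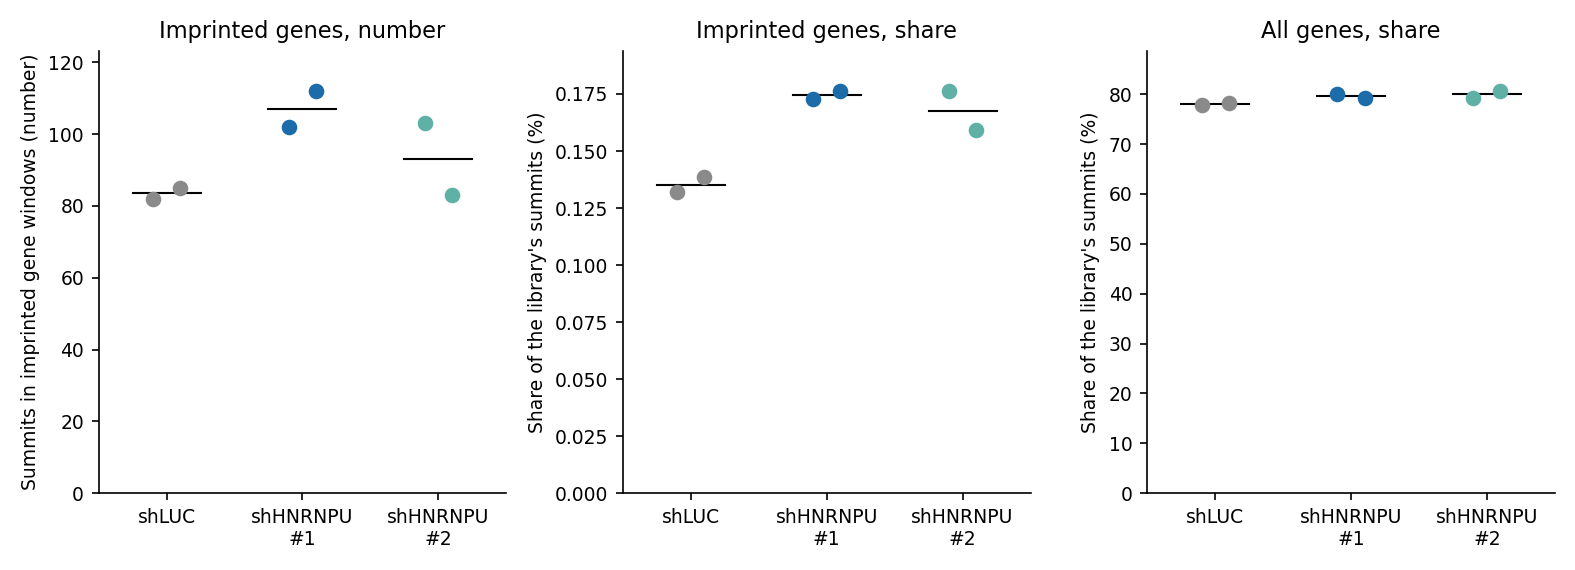
Number of summits in the windows of 33 imprinted genes (left), their share of the library's summits in percent (middle) and the share in the windows of all genes (right); each point is 1 library and each line the mean of 2 libraries of a hairpin. On the share scale the 4 shHNRNPU libraries, 0.159% to 0.176%, sit above the shLUC libraries at 0.132% and 0.138%, whereas the number of 83 in shHNRNPU #2 repeat 2 sits between the controls.

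Gene by gene, 27 of the 33 members had a summit in all 6 libraries. DLK1, MEG3 and MAGEL2 had one in some libraries, and MKRN3, PEG3 and ZIM2 had none in any. The mean number of summits was higher with shHNRNPU for 19 of the 30 members with a summit, lower for 4 and equal for 7. Of all 38013 genes with a summit, 35.5% had a higher and 35.5% a lower mean, against 63.3% and 13.3% of the members. Markers of other cell types leaned the same way, at 6 of 8 higher and 0 lower. Neither set was matched to all genes by length or number of summits. Members share summits where their windows overlap, as do KCNQ1OT1 in KCNQ1, NNAT in BLCAP and RTL1 in MEG8, so these members are not independent. The windows of 2 members held more summits in every treated library than in either control, and 0 held fewer. Over all genes, 1.98% were higher and 3.09% lower in that way. The adjusted p over all genes was 1 for both members (exact permutation test, Benjamini-Hochberg), and for 0 genes was the unadjusted p below 0.05, a level out of reach with these group sizes.

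These 2 members were PLAGL1, which encodes a zinc finger transcription factor that restrains cell growth, and GRB10, which encodes an adaptor that dampens insulin receptor signalling. Each held 6, 6, 6 and 6 summits with shHNRNPU and 5 and 5 with shLUC. The difference of 1 summit was absent from both genes when only gene ends were counted, and with a score of at least 5 it was 0.25 summits for PLAGL1 and 0 for GRB10. Neither gene had groups apart with that score or in lists cut to one size. With a score of at least 5, 2 members were still higher in every treated library, but they were not these 2. The strongest locus of PLAGL1, at chr6:143973320, was at percentiles 90.4, 94.1, 91.8, 90.1, 94.0 and 92.2, with overlapping groups. A locus nearer the lower-coordinate end of the gene, at chr6:143942309, was lower in all treated libraries, with percentiles of 65.3, 75.0, 69.9 and 65.0 against 77.5 and 78.5. At the start whose sequence is shown above, every library had a summit within 250 bp of the window.

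**Figure D2:**
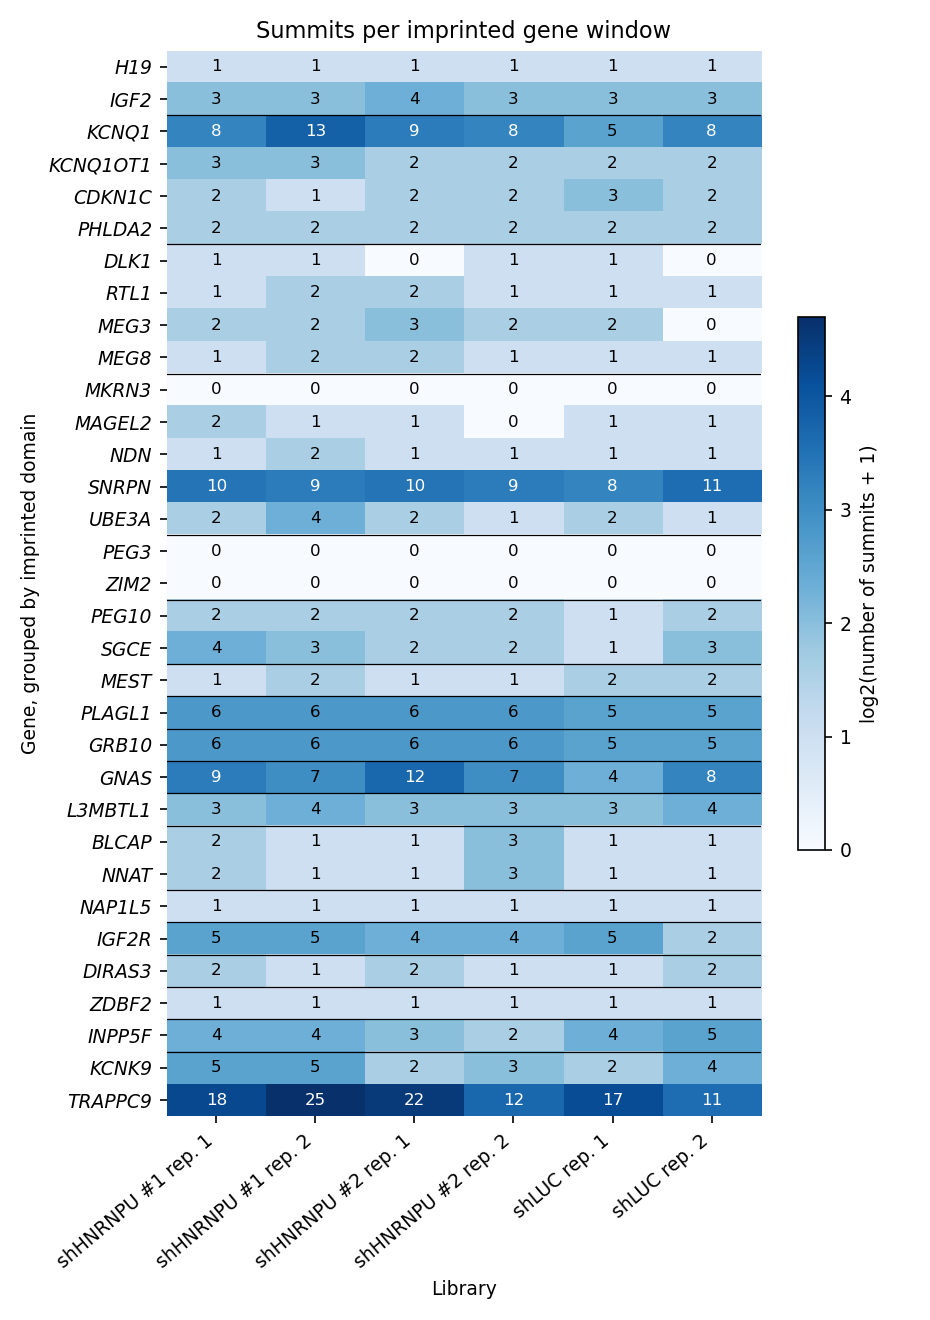
Number of summits in the window of each imprinted gene (rows, ordered by domain, with lines between domains) in each library (columns); numbers are printed in the cells and the shade gives log2 of the number plus 1. PLAGL1 and GRB10 hold 6 summits in each shHNRNPU library and 5 in each shLUC library, TRAPPC9 ranges from 11 to 25, and MKRN3, PEG3 and ZIM2 are at 0 throughout.

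Summits were then joined into loci over the whole genome, with a summit counted as in a locus up to 250 bp from its centre. Imprinted windows held 206 of 123131 loci. Of these, 80 (38.8%) were found in 1 library and 38 (18.4%) in all 6, close to 38.0% and 20.7% of all loci. Lost loci were those held by both controls and by no treated library. There were 3 lost loci among the 56 imprinted loci held by both controls (5.36%), where 5.68% of all such loci were lost. Gained loci were those held by all 4 treated libraries and by neither control. There were 2 gained loci among 45 (4.44%), where 3.59% of all such loci were gained. Both shares were near those of the genome, and at all 5 loci a lacking library had a summit within 1000 bp, so that no call lay in a region without any summit of the other group.

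The clearest of these was ZDBF2, which encodes a zinc finger protein expressed from the paternal copy. One summit was called in the gene in each library, and it lay 107, 83, 107 and 73 bp inside the outermost RefSeq start with shHNRNPU and 493 and 478 bp inside it with shLUC. The groups did not overlap in position, and no test of positions was made. The treated summits fell within or just before the upstream edge of the second printed window, which has 50 CpG dinucleotides, and the control summits fell beyond its downstream edge. Scores were 27.1, 18.4, 15.2 and 14.2 with shHNRNPU and 9.73 and 11.2 with shLUC, at percentiles of 87.1, 79.4, 78.0 and 69.3 against 59.7 and 67.2. ZDBF2 therefore gave 1 gained locus, at chr2:206274770, and 1 lost locus, at chr2:206275141, which are 371 bp apart. A gained locus within 1000 bp was found for 49 of the 2372 lost loci of the genome (2.07%).

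PEG10, which encodes a retrotransposon-derived protein needed in the placenta, and SGCE, which encodes a sarcoglycan, lie head to head. Relative to the start of PEG10, a weak summit lay at -216, -227, -192 and -325 bp with shHNRNPU, while shLUC repeat 1 had none and shLUC repeat 2 had one at 43 bp, inside the gene. This was the other gained locus, at chr7:94656109, with percentiles of 50.7, 41.9, 49.7 and 22.9, and the nearest shLUC summit was 259 bp away. The strong summit of PEG10 lay 1708, 2088, 1688 and 1661 bp inside the gene with shHNRNPU and 2116 and 2118 bp inside it with shLUC. Its percentile was 96.0, 94.1, 96.8, 94.4, 93.8 and 96.3, so its rank did not separate the groups.

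The other lost loci were weak. One lay 592 bp beyond the higher-coordinate end of CDKN1C, which encodes an inhibitor of cyclin-dependent kinases, at chr11:2886367 with percentiles of 17.5 and 31.4 in the controls. The strong summit of CDKN1C lay at -132, -87, -142, -155, -134 and -79 bp relative to the same end, outside the gene, and every library had it. The last lost locus was in the body of INPP5F, which encodes an inositol phosphatase, at chr10:119786329 with percentiles of 48.2 and 20.5, and a treated summit lay 255 bp away.

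**Figure D3:**
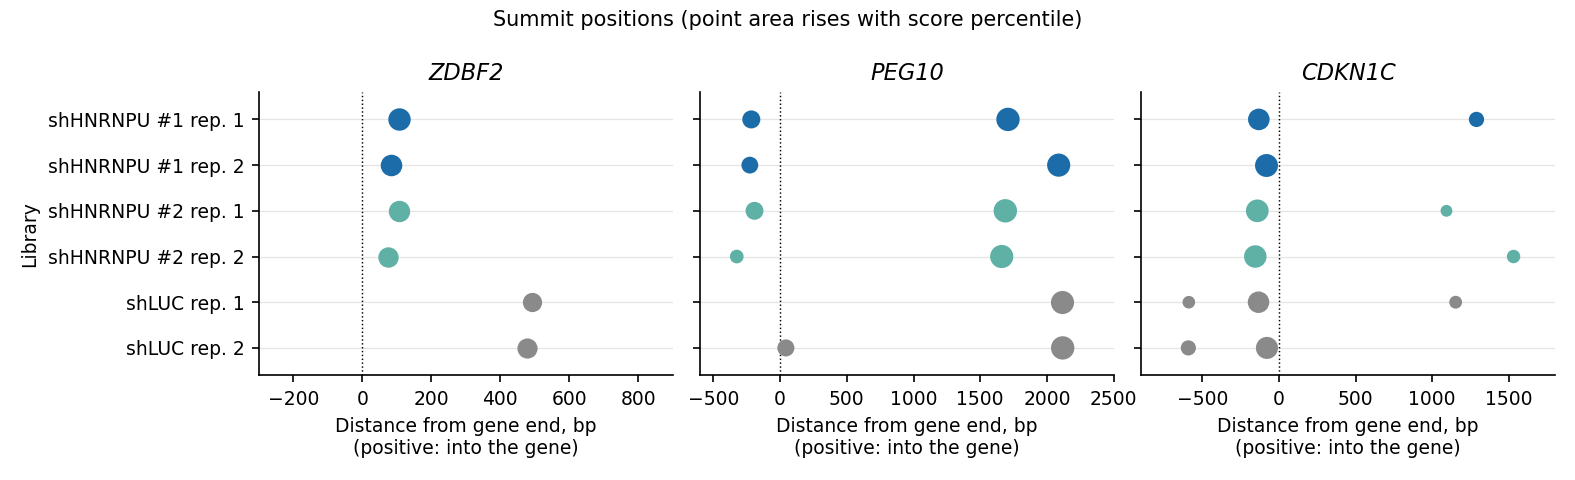
Distance in bp of each summit from the outermost start of ZDBF2 and of PEG10 and from the higher-coordinate end of CDKN1C (dotted lines), positive into the gene, with 1 row per library and point area rising with the score percentile. The ZDBF2 summit lies 73 to 107 bp inside the gene in the shHNRNPU libraries and 478 and 493 bp inside it in the shLUC libraries, while the strong CDKN1C summit lies at -155 to -79 bp in all 6.

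At the 38 imprinted loci held by all 6 libraries, the score percentile was compared between groups. All treated libraries were above both controls at 6 loci (15.8%) and below both at 5 (13.2%). Over all 25519 loci of this kind the shares were 10.9% and 13.9%, so the members were near the genome in both directions. The median difference of mean percentile was 0.83 points for imprinted loci, with a range of -25.5 to 44.7, and -0.29 points for all loci. Of the imprinted loci 20 of 38 (52.6%) had a higher mean with shHNRNPU, and 47.5% of all loci did. The median percentile of the imprinted loci was 68.0, against 73.7 for all loci.

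The largest difference lay in SNRPN, which encodes a protein of the spliceosome and whose promoter region holds the control region of the Prader-Willi/Angelman domain. A locus at chr15:24857846, 1275 bp downstream of an upstream RefSeq start, had percentiles of 80.0, 49.9, 80.9 and 83.8 with shHNRNPU and 8.74 and 49.2 with shLUC. The means were 73.6 ± 15.9 (SD, n = 4) and 29.0 ± 28.6 (SD, n = 2), and the groups were separated by less than 1 point (exact permutation p = 0.133, Benjamini-Hochberg adjusted p over all loci 0.538). Each group thus had a library near 49, shHNRNPU #1 repeat 2 and shLUC repeat 2, and the difference was 24.4 points without shLUC repeat 1 and 64.9 without shLUC repeat 2. The neighbouring locus at chr15:24856558, 1288 bp away and at the start itself, was at 88.2, 85.6, 85.8, 91.0, 81.3 and 86.7 with overlapping groups. The strongest locus of the gene, at its outermost end at chr15:24823639, was at 98.9, 98.3, 95.5 and 98.2 with shHNRNPU and 94.8 and 92.2 with shLUC. At the main start, whose sequence is printed above, a summit was called in shHNRNPU #2 repeat 1 and shLUC repeat 2 only, at percentiles of 57.6 and 52.9. A locus at chr15:24951323, upstream of that start, had a mean difference of -13.6 points, which was -7.84 without shLUC repeat 2, and the groups overlapped.

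In the same domain, the start locus of UBE3A, which encodes a ubiquitin ligase, had high percentiles in every library, 98.2, 98.3, 94.4, 93.2, 95.0 and 95.3. The start of NDN, which encodes the growth suppressor necdin, had percentiles of 62.5, 67.6, 65.9 and 66.9 with shHNRNPU and 68.1 and 28.5 with shLUC. Its mean difference of 17.4 points came from shLUC repeat 2, since it was -2.42 without that library, and it was 37.2 without shLUC repeat 1. MAGEL2, which encodes a regulator of ubiquitin ligases, held 2, 1, 1, 0, 1 and 1 summits. MKRN3, which encodes a ring finger protein that holds back puberty, held 0 in every library.

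BLCAP, a gene first described in bladder cancer that hosts the paternally expressed gene NNAT in its intron, came next. The locus at chr20:37528105, 229 bp upstream of the BLCAP start and inside the printed window, was at 82.8, 83.6, 78.0 and 64.3 with shHNRNPU and 38.9 and 60.7 with shLUC. All treated libraries were above both controls, with a mean difference of 27.4 points that was 16.4 without shLUC repeat 1. At GNAS, which encodes a signalling G protein subunit, a locus at chr20:58891099 was at 66.3, 74.1, 58.1 and 70.4 against 30.7 and 58.0. The lowest treated library was above the higher control by under 1 point there, and the mean difference of 22.8 points was 9.21 without shLUC repeat 1 and 36.5 without shLUC repeat 2. GNAS also held a locus that was lower by mean, at chr20:58852794 next to an alternative start, with 70.5, 39.9, 7.34 and 31.2 against 62.1 and 52.5, where the groups overlapped. Its mean difference of -20.1 points became -31.1 on leaving out shHNRNPU #1 repeat 1 and -10.1 on leaving out shHNRNPU #2 repeat 1.

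L3MBTL1, which encodes a chromatin reader that binds methylated histones, carried a difference in each direction at one promoter. The locus 14 bp inside the start, at chr20:43507711, was at 82.1, 70.4, 73.1 and 71.4 with shHNRNPU and 52.2 and 59.0 with shLUC. The locus 1153 bp farther into the gene, at chr20:43508864, was at 53.2, 48.0, 55.6 and 59.6 against 67.4 and 69.4. At both the groups were apart, with mean differences of 18.7 and -14.3 points (exact permutation p = 0.133 for each). The strongest locus of the gene, near its inner start at chr20:43514130, was at 95.6, 94.7, 94.4, 93.1, 93.9 and 97.9 and did not separate the groups.

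The lowest difference was at GRB10. A locus in the body of the gene, at chr7:50633151, was at 55.2, 46.1, 62.7 and 28.8 with shHNRNPU and 69.1 and 78.1 with shLUC, a mean difference of -25.5 points with the groups apart. GRB10 thus had 1 more summit in each treated library but a lower rank at its highest-ranked locus. A locus in the body of TRAPPC9, at chr8:140052098, was at 23.1, 14.7, 49.8 and 5.85 against 49.3 and 30.5, and the groups overlapped. Its mean difference of -16.5 points was -7.10 without shLUC repeat 1, -25.9 without shLUC repeat 2, -25.3 without shHNRNPU #2 repeat 1 and -10.7 without shHNRNPU #2 repeat 2. At MEST, which encodes a hydrolase-like protein expressed from the paternal copy, the start locus at chr7:130486262 was at 82.7, 91.5, 93.6 and 92.2 with shHNRNPU and 94.7 and 93.7 with shLUC. All treated libraries were below both controls there, and 3 of them by less than 3 points.

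**Figure D4:**
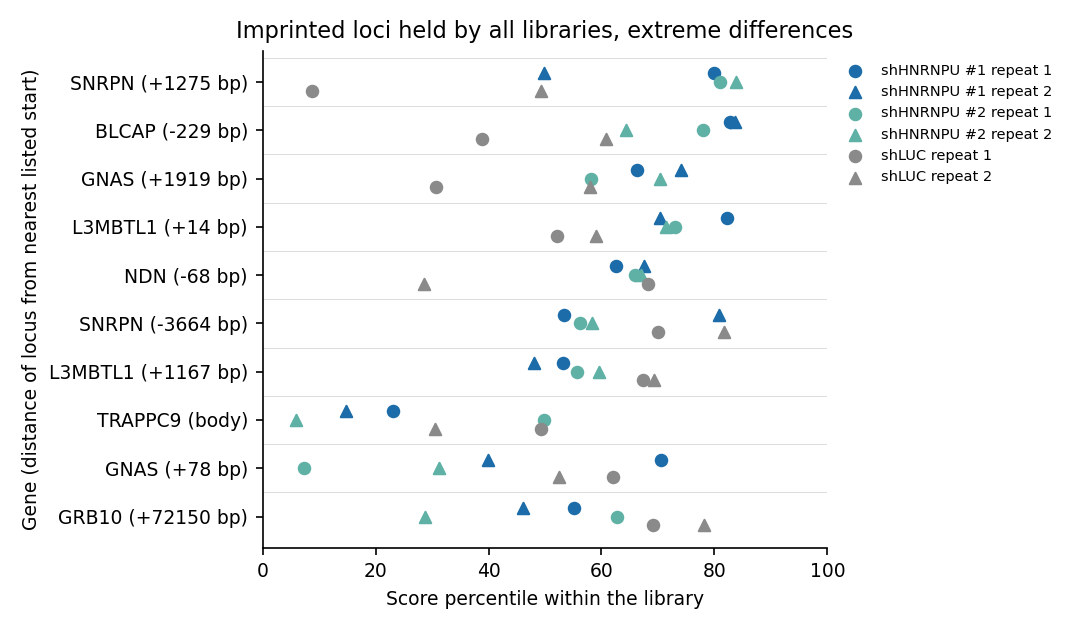
Score percentile within the library (horizontal axis) of the 5 imprinted loci with the highest and the 5 with the lowest difference of mean percentile among the 38 held by all libraries; rows give the gene and the distance to the nearest listed start, and symbols give the library. The 2 loci of L3MBTL1, at +14 and +1167 bp from the start, separate the groups in opposite directions, and the locus of SNRPN at +1275 bp has shLUC repeat 1 at 8.74.

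The domains of chromosome 11 and of chromosome 14 showed how unevenly known imprinted promoters were called. H19, a maternally expressed non-coding RNA, held 1 summit in every library, and it lay 3370 bp upstream of the start, at chr11:2004636, with percentiles of 79.1, 86.0, 86.4, 90.1, 80.6 and 85.9. No library had a summit within 250 bp of the H19 start window. IGF2, the fetal growth factor that shares this domain, held 3, 3, 4, 3, 3 and 3 summits. KCNQ1OT1, the long non-coding RNA that silences its neighbours on the paternal copy, had a start locus in all libraries at chr11:2700099, with 70.6, 51.2, 58.4, 64.3, 72.3 and 68.5. A stronger locus inside it, at chr11:2693488, was at 90.3, 85.0, 87.8 and 90.4 with shHNRNPU and 93.8 and 95.6 with shLUC, so that all treated libraries were below both controls, with a mean difference of -6.34 points. KCNQ1 held 8, 13, 9, 8, 5 and 8 summits, and PHLDA2, which encodes a brake on placental growth, held 2 in each library.

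In the DLK1-MEG3 domain, calls were few and weak. DLK1, which encodes a membrane protein related to Notch ligands, held 1, 1, 0, 1, 1 and 0 summits. MEG3, a maternally expressed non-coding RNA, held 2, 2, 3, 2, 2 and 0, and none of its 3 start windows had a summit within 250 bp in any library. The highest-ranked locus of the domain when libraries without a summit count as 0, in the body of MEG3 at chr14:100840405, was called in 4 libraries at percentiles of 31.6, 22.4 and 39.4 with shHNRNPU and 17.0 in shLUC repeat 1. RTL1 and MEG8, a retrotransposon-derived gene and a non-coding RNA, each held 1, 2, 2, 1, 1 and 1. In the PEG3 domain, PEG3 and ZIM2, which share exons at their start and encode zinc finger proteins, held 0 summits in 76 kb in every library. Since depth is unknown, this says that no peak was called there and not that the chromatin was closed.

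The remaining domains did not separate the groups by count. GNAS held 9, 7, 12, 7, 4 and 8 summits, IGF2R, which encodes a receptor that clears IGF2, held 5, 5, 4, 4, 5 and 2, and SNRPN held 10, 9, 10, 9, 8 and 11. KCNK9, which encodes a potassium leak channel, held 5, 5, 2, 3, 2 and 4, and TRAPPC9 held 18, 25, 22, 12, 17 and 11. SGCE held 4, 3, 2, 2, 1 and 3, INPP5F held 4, 4, 3, 2, 4 and 5, and UBE3A held 2, 4, 2, 1, 2 and 1. NAP1L5, a relative of nucleosome assembly proteins, and ZDBF2 held 1 in each library, and DIRAS3, which encodes a Ras-like growth suppressor, held 1 or 2. Over the 18 domains the mean was higher with shHNRNPU for 11, lower for 3 and equal for 4. Among the equal ones was the PEG3 domain, with 0 summits in every library. Groups were apart for 2 domains only, PLAGL1 and GRB10, each a single gene already described above. Domains have no like share over all genes to set beside these counts.

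**Figure D5:**
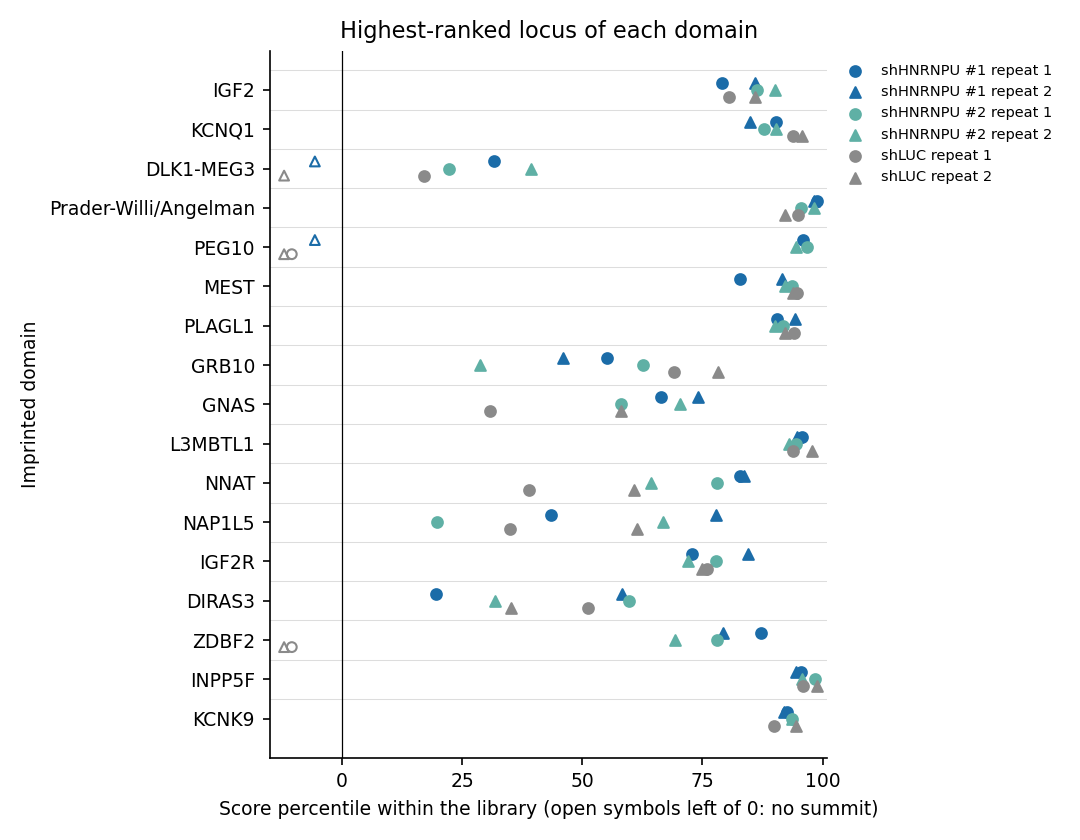
Score percentile within the library (horizontal axis) of the highest-ranked locus (by mean percentile, with libraries without a summit counted as 0) in each of the 17 imprinted domains with a summit; colour gives the hairpin, shape the repeat, and open symbols left of 0 mark libraries without a summit within 250 bp. ZDBF2 is open for both shLUC libraries. For ZDBF2 and for PEG10 the libraries with open symbols have summits that lie farther than 250 bp away in the same gene.

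Promoter windows as a whole did not separate the groups. A summit lay within 250 bp of 23, 26, 26, 21, 23 and 27 of the 48 member windows, which is 50.0% ± 5.10 (SD, n = 4) in treated and 52.1% ± 5.89 (SD, n = 2) in control libraries, within the spread between libraries (exact permutation p = 0.667). Over all genes the values were 45.2% ± 0.838 (SD, n = 4) and 44.5% ± 0.00805 (SD, n = 2). In all 6 libraries a summit was found for 35.4% of member windows and 36.2% of all windows.

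Genes that keep imprints in place did not separate the groups by number of summits. Of 7 such genes, 6 had summits in every library and 0 had groups apart in either direction. TRIM28 held 2 and CTCF 3 summits in each library, and SETDB1 and DNMT1, a histone and a DNA methyltransferase, held 1. ZFP57 itself held 0, 1, 1, 0, 1 and 0. A second list of 26 imprinted genes had 24 in the table, of which 19 had a summit in all 6 libraries and 3, MCTS2, USP29 and MIMT1, had none. Added gene by gene, this list held 105, 104, 85, 79, 86 and 82 summits, with overlapping groups (exact permutation p = 0.667). Of the 21 with a summit, the mean was higher with shHNRNPU for 12 and lower for 5, and 0 had groups apart in either direction. Of all genes with a summit, 35.5% had a higher and 35.5% a lower mean. Groups were apart upward at 1.98% and downward at 3.09% of them. At shares this small, 0 genes apart in lists of 7 and 21 was near the share of all genes.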

How the data were processed

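ATAC-seq, which reads open chromatin by the cuts of a transposase, was done on 6 libraries of H1 cells. The deposited values are summit lists made by the authors, one for each library, with a score that is the −log10 of the q-value of the peak, and the lowest scores match a q-value of 0.05. The submitters' processing notes name cutadapt, Bowtie2, SAMtools, MACS2, deepTools and hg38, without versions. Peaks were called per library, scores were not normalized between libraries, and no read counts were used here, so depth and the precision it gives are unknown. The paper linked to the study reports other experiments, so only its style was followed. Groups and repeat numbers came from the sample titles.

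Gene windows were RefSeq genes of GRCh38.p14 plus 5000 bp to either side. Strand and exons were not used. Loci were built over the whole genome from the summit of highest percentile downward, absorbing summits within 250 bp, so that neighbouring loci can share a summit. Group means were set against each other in exact permutation tests over all 15 ways to pick the 2 controls, doubling the smaller tail for a two-sided p, with Benjamini-Hochberg adjustment over all genes or all loci. Named loci were the one of highest mean percentile in each domain, with a library without a summit counted as 0, every lost or gained one, and the 5 highest and 5 lowest differences among loci held by all libraries; values of other loci and the summit positions were chosen after they were seen. The members and gene lists were chosen with earlier results of these data known. Promoter sequences were RefSeq's, for 19 of 33 members. Alternatives tried were lists cut to one size, a score of at least 5, other windows and match distances, a score scaled by its median, permuting within repeats and leaving out libraries. The counting was tested on simulated data. Python 3.11.15 was used with numpy 2.4.6, pandas 2.3.3, scipy 1.17.1 and matplotlib 3.10.9.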

Additional observations from a re-analysis of the deposited data

Results flagged for a closer look

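Among 42 values examined, 4 had a library that stood far from the other shHNRNPU libraries, where chance gives about 1 in 20 or 2.1. The IGF2 domain held 5 summits in shHNRNPU #2 repeat 1 and 4 in each of the other treated libraries. MEST held 2 summits in shHNRNPU #1 repeat 2 and 1 in the other treated libraries, and both shLUC libraries also held 2. L3MBTL1 held 4 summits in shHNRNPU #1 repeat 2 and 3 in the other treated libraries, against 3 and 4 with shLUC. Where the other treated libraries were equal, a gap of 1 summit was always picked out. The rate of 1 in 20 therefore does not hold for counts this small. The SNRPN locus at chr15:24857846 was at percentile 49.9 in shHNRNPU #1 repeat 2 and between 80.0 and 83.8 in the other treated libraries.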

How the results depend on the processing

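Of 239 values recomputed, 199 counted as the same, 39 moved and 1 changed sign. A difference counted as the same if it kept its sign, whatever its size, and a count if it stayed near the reported one. Sizes could therefore change, as at the GNAS locus at chr20:58891099, from 22.8 points to 9.21 without shLUC repeat 1. The higher number and share of summits in imprinted windows kept its direction under every alternative run, but within 2000 bp of a gene end the differences were only 1 summit and 0.00477 points, and counts of genes and of domains higher in all treated libraries were both 0. Leaving out each library in turn gave a difference of 12.5 to 22.2 summits and 0.0326 to 0.0399 points. Leaving out both libraries of a hairpin was chosen after seeing the data. Without shHNRNPU #1 the differences were 9.5 summits and 0.0325 points, with 2 genes higher and 2 lower. Without shHNRNPU #2 they were 23.5 summits and 0.0393 points, with 5 genes higher and 0 lower. With lists of one size, 0 genes and 0 domains were higher. With a score of at least 5 there were 1 lost and 1 gained locus. With a match distance of 500 bp, or with absence judged within 1000 bp, 0 loci were lost and 0 gained, since a summit of a lacking library lay near each. With a match distance of 100 bp, 3 loci were higher and 3 lower in percentile. Leaving out a library gave 2 to 7 genes higher and 0 to 2 lower, 2 to 5 domains higher and 0 to 1 lower, 3 to 9 lost and 3 to 6 gained loci, and 6 to 12 loci higher and 5 to 11 lower in percentile. The highest of these counts came without shLUC repeat 1 or shLUC repeat 2, as fewer libraries have to be apart. At the NDN start, leaving out each library gave differences of -2.42, without shLUC repeat 2, to 37.2, without shLUC repeat 1. Same-numbered repeats did not vary together (correlations of -0.0438, -0.0138 and 0.00125 over 25519 loci). With repeat number as a block, 3 genes and 2 domains were higher, 8 loci were higher and 8 lower in percentile, and the exact permutation p was 0.444 for the number and 0.222, the smallest possible, for the share. No paired form exists for lost and gained loci, which have no test. Since depth is unknown, a missing summit means only that no peak was called.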

Other observations

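AIRN, the non-coding RNA antisense to IGF2R, held 0, 1, 0, 1, 0 and 0 summits, and GNAS-AS1, the antisense RNA of GNAS, held 5, 3, 4, 3, 1 and 3. NTM, a long gene of a neural adhesion protein, held 41, 36, 30, 26, 30 and 30. UHRF1, a partner of DNMT1 at replicating DNA, held 2, 1, 2, 1, 1 and 1, and ZNF445, a zinc finger protein that keeps imprints, held 2, 2, 1, 1, 2 and 2.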
